A study of Homo sapiens with 2 samples.

Results

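Chromosome 10 RNA was compared along the chromosome in T47D, an established line of luminal breast cancer cells, from 2 libraries. One library (shNT) came from cells that carried a non-targeting short hairpin, and the other (shRON) from cells that carried a hairpin against RON, the receptor tyrosine kinase encoded by MST1R. After transduction both cultures were selected with puromycin at 5 ug/mL and then held at 1 ug/mL, so they share the drug and the exposure to a vector, and both grew in high-glucose DMEM with 10% serum. The name of the deposited control table describes its cells as wild type, while its label gives the non-targeting hairpin, and the label was followed. That the control shares the drug and the vector rests on this label. The members are the chromosome 10 genes at 1 FPKM or more in at least 1 library, where FPKM is a fragment count scaled to transcript length and to the mapped fragments of the library, summed over the transcripts of a gene. Genes with names starting AKR1C or IFIT, and SNCG, MMRN2, GATA3, SCD, PGAM1 and KIF11, were left out. Of 989 chromosome 10 genes listed, 16 were left out by name, 502 stayed under 1 FPKM in both libraries and 471 were members, among 12507 genes measured in the whole series. They fall into 231 genes that start below 80 Mb (hg19), 151 that start from 80 to 110 Mb and 89 that start above 110 Mb.

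Genes that lie side by side on a chromosome share their DNA template, their replication timing and often their chromatin neighbourhood, and in cancer cells with rearranged chromosomes the number of template copies can differ from one stretch of a chromosome to the next. The long arm of chromosome 10 holds many housekeeping genes for mitochondria, vesicle traffic and RNA processing. DNA was not measured in these cultures. Each group is a single library, so differences between conditions come without a p-value or an error, and each ratio describes these 2 libraries. The stretches were chosen by the same shRON over shNT ratios of FPKM that are reported here, so the contrast between the stretches is a description and not a test.

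MST1R, the target of the hairpin, was at 12.1 FPKM in shNT against 9.10 FPKM in shRON (log2 ratio -0.38). All 9 luminal markers checked were above 1 FPKM in both libraries, with log2 ratios from -1.11 (PGR) to 0.27 (GATA3). Among markers of other cells, 0 of 6 immune, 0 of 3 basal, 2 of 6 fibroblast and 1 of 5 endothelial genes reached 1 FPKM, and PTPRC, LYZ, PECAM1 and VWF were listed at 0 in both. The deposited depth, multiplied by transcript length, gave 2.90 gigabases of reads for shNT and 2.77 for shRON. FPKM summed to 398372 and 382330.

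The promoters of the most abundant gene between 80 and 110 Mb, of the one with the lowest and of the one with the highest ratio there among genes with a mean of 5 FPKM or more are shown, because promoters of different kinds lie inside the same stretch. Each is the 250 bases of the GRCh37 reference before the transcript start in the deposited tables, 5′ to 3′, with CG dinucleotides in capitals. GHITM (plus strand, chr10:85898935-85899184) encodes a protein of the inner mitochondrial membrane, C10orf116 (plus strand, chr10:88727938-88728187), now named ADIRF, encodes the adipogenesis regulatory factor, and RBP4 (minus strand, chr10:95360994-95361243) encodes the plasma carrier of retinol.
GHITM: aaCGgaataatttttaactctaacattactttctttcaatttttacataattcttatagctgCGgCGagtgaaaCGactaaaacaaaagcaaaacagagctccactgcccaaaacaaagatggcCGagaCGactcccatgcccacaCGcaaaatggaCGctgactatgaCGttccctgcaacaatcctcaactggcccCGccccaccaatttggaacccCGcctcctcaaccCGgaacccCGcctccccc
C10orf116: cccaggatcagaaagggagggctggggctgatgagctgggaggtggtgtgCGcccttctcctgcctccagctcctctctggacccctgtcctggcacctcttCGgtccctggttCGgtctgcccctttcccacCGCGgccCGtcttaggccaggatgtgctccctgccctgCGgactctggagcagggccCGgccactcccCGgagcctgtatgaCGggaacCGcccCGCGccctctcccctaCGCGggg
RBP4: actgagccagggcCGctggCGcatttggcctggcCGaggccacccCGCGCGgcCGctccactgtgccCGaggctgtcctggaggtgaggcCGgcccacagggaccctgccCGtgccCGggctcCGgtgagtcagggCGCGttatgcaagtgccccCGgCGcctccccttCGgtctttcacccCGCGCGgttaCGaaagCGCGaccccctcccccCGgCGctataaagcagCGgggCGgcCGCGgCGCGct
The GHITM window holds 13 CG dinucleotides at 48.8% G and C, the C10orf116 window 15 at 69.6%, and the RBP4 window 31 at 74.4%. The letters TATAAA, the core of a TATA box, occur on one of the strands of the RBP4 window and in neither of the other windows.

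Chromosome 10 genes between 80 and 110 Mb were lower in the shRON library as a block, while those on both sides were slightly higher. The median log2 ratio of FPKM + 1, shRON over shNT, was -0.42 between 80 and 110 Mb (quartiles -0.63 and -0.20, 151 genes). It was 0.15 below 80 Mb (quartiles -0.11 and 0.35, 231 genes) and 0.18 above 110 Mb (quartiles -0.03 and 0.34, 89 genes). The median of the middle stretch was thus 0.58 log2 units under that of the genes below 80 Mb, a ratio of 0.671, and 0.61 under that of the genes above 110 Mb, a ratio of 0.657. The outer stretches, which lie at opposite ends of the chromosome, differed from each other by 0.03. Over all 12507 measured genes the median was 0.04, with quartiles at -0.25 and 0.30. In bulk RNA, fewer cells that express a gene and less RNA per cell cannot be told apart.

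In the middle stretch 128 of 151 genes (84.8%) had a log2 ratio below 0, against 46.0% of all measured genes. By the size rule of 1.5-fold, 48 genes (31.8%) were lower there and 6 (3.97%) higher, where 8.88% of all measured genes were lower and 9.99% higher. Below 80 Mb, 14 genes (6.06%) were lower and 27 (11.7%) higher, and above 110 Mb, 5 (5.62%) were lower and 8 (8.99%) higher. By 2-fold, 13 of the 151 genes of the middle stretch, 3 of 231 below 80 Mb and 2 of 89 above 110 Mb were lower. Over all measured genes 273 of 12507 (2.18%) were. In the same order, 3, 9 and 3 genes were higher by 2-fold, and 422 of all measured genes. These shares come from the contrast that placed the bounds and are given as a description. Some genes passed the filter through 1 library only and therefore had to differ. Between 80 and 110 Mb there were 6 such genes in shRON and 9 in shNT, against 8 and 7 below 80 Mb and 5 and 2 above 110 Mb. With 1 FPKM required in both libraries the medians were 0.16, -0.42 and 0.16 from the first stretch to the last.

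**Figure D1:**
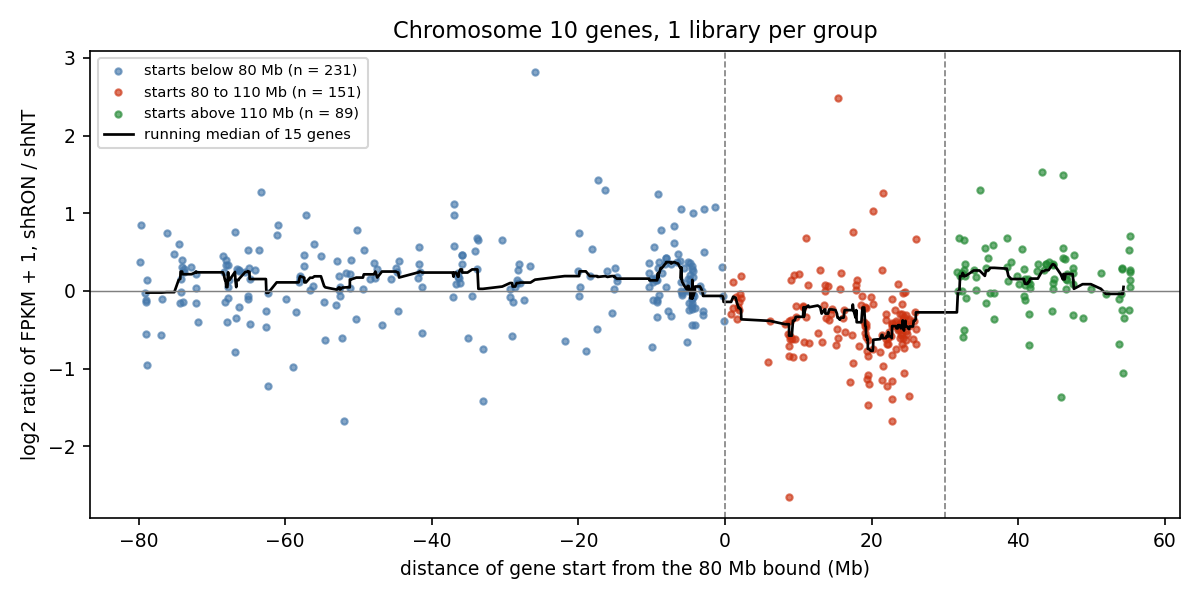
Log2 ratio of FPKM + 1 (shRON over shNT, vertical axis) for each of the 471 chromosome 10 genes against the distance of its start from the 80 Mb bound in Mb, with dashed lines at both bounds and a black running median of 15 genes. The genes between the dashed lines lie mostly below 0, with a median of -0.42, and the medians on both sides are 0.15 and 0.18.

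Along the chromosome the first genes above the lower bound differed less than those further on. The 11 genes that start from 80.8 to 82.2 Mb, from ZMIZ1 to TSPAN14, had a median of -0.14 and ranged from -0.37 to 0.19, and 0 of them reached 1.5-fold in either direction. After a gap of 3.69 Mb without a member start, GHITM at 85.9 Mb had a log2 ratio of -0.92. The 140 genes from GHITM on had a median of -0.45, a ratio of 0.730, and held all 48 genes of the stretch that were lower by 1.5-fold. When the chromosome was divided at the pair of points that left the smallest sum of absolute deviations from the piece medians, the first point fell at 79.8 Mb, between POLR3A and RPS24. It moved to 84.1 Mb, between TSPAN14 and GHITM, when only genes with a mean of 5 FPKM or more were used and when no filter was used. It also did so when the trend with expression was removed, and when genes with near-identical copies were left out. Each point is given as the middle between neighbouring member starts, so 84.1 Mb is the middle of the gap before GHITM. The fitted point was thus 79.8 or 84.1 Mb by setting, which is not an interval for where the level changes. The window from 75 to 80 Mb already had a median of -0.02, with 16 of its 32 genes below 0. From 70 to 75 Mb the median was 0.16.

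The genes on either side of the lower bound had mixed ratios. Just below 80 Mb, the potassium channel gene KCNMA1 was at 3.19 FPKM in shNT against 7.83 in shRON (log2 ratio 1.08) and the scaffold gene DLG5 at 36.4 and 45.2 (0.31). POLR3A, which encodes the largest subunit of RNA polymerase III, was at 10.1 and 9.65 FPKM (-0.06), and the ribosomal protein gene RPS24 at 1827 and 1401 FPKM (-0.38). So the last gene below the bound was already lower, although ribosomal protein genes have many processed copies and its value is uncertain. Just above 80 Mb, the transcriptional coactivator gene ZMIZ1 was at 25.2 and 20.4 FPKM (-0.29), PPIF, which encodes mitochondrial cyclophilin D, at 29.0 and 31.7 (0.12), ZCCHC24 at 1.66 and 1.28 (-0.22) and LOC650623 at 1.36 and 1.24 (-0.07).

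At the far end the sign of the ratio changed between neighbouring members, but the first gene past the change was low. Where the level changes between 106.0 and 111.6 Mb is therefore not resolved by these genes. The glutathione transferase genes GSTO1 (28.1 FPKM in shNT against 19.7 in shRON, -0.49) and GSTO2 (24.5 and 14.9, -0.68), which start at 106.0 Mb, were the last of 35 members in a row with ratios below 0, a run that opened with MGEA5 at 103.5 Mb. The next member, LOC100505869 at 106.1 Mb, was at 1.38 and 2.79 FPKM (0.67). No member starts between it and XPNPEP1, an aminopeptidase gene at 111.6 Mb, so the 110 Mb bound lies in a stretch without measured genes. XPNPEP1 was at 12.2 and 14.6 FPKM (0.24), the cytoskeletal gene ADD3 at 6.29 and 6.28 (-0.0036), MXI1, which encodes an antagonist of MYC, at 6.72 and 11.4 (0.68), and the splicing factor gene SMNDC1 at 17.3 and 19.9 (0.19). The second point of the division, midway between neighbouring member starts, fell at 106.1 Mb, between GSTO2 and LOC100505869. It was 108.8 Mb when the mean had to reach 5 FPKM. LOC100505869 is then left out, so the point again came right after GSTO2, midway to XPNPEP1.

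Inside the stretch the ratios were uneven. All 6 windows of 5 Mb between 80 and 110 Mb had medians below 0, from -0.57 to -0.14. Of the 22 windows outside 4 did, with a range from -0.20 to 0.39. Both outside extremes rest on few genes, 2 from 55 to 60 Mb (-0.20) and 8 from 45 to 50 Mb (0.39). The lowest window median belonged to 85 to 90 Mb (18 genes, -0.57), and the window from 90 to 95 Mb was nearer to 0 (20 genes, -0.22). The gene-dense windows from 95 to 100 Mb (35 genes) and from 100 to 105 Mb (57 genes) had medians of -0.46 and -0.50. The running median of 15 genes was lowest around C10orf28 at 99.9 Mb, at -0.77. Below 80 Mb the 106 genes before the widest gene-free gap, which separates them from the genes of the long arm, had a median of 0.16 and the 125 genes after it 0.14.

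Levels of the stretch as a whole show the same difference without a logarithm. The FPKM of its 151 genes summed to 2832 in shNT and 1890 in shRON, a difference of -33.3%, and made up 0.711% of the total of all genes in shNT and 0.494% in shRON. The genes above 110 Mb summed to 1177 and 1318 FPKM, 12.0% more in shRON. Those below 80 Mb summed to 6646 and 6336 FPKM, a difference of -4.67%, and of 2.39% without RPS24, whose 1827 and 1401 FPKM weigh heavily in that sum. Median levels were 10.9 FPKM in shNT against 7.54 in shRON in the middle stretch, 8.85 and 10.4 below 80 Mb, and 6.98 and 8.91 above 110 Mb.

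**Figure D2:**
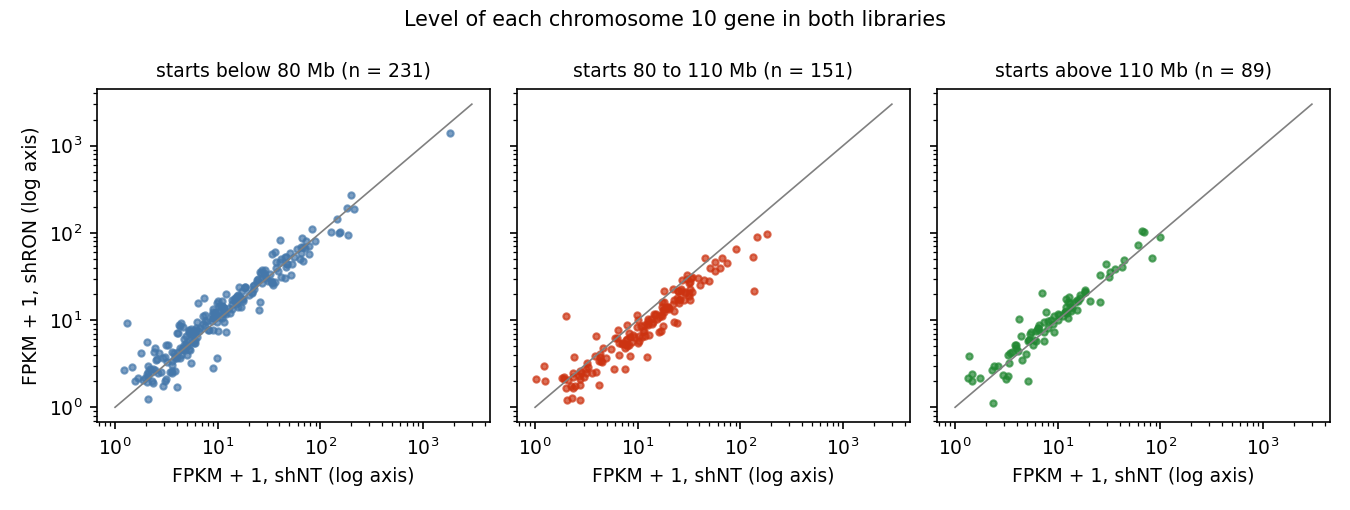
FPKM + 1 of each chromosome 10 gene in shNT (horizontal, log axis) and shRON (vertical, log axis), 1 point per gene, in 3 panels by stretch, with a grey line of equality. In the middle panel 128 of 151 points lie below the line.

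Medians were below 0 at all 3 levels of expression, but nearer to 0 for low genes, on a scale that understates their differences. Between 80 and 110 Mb the median was -0.25 for the 43 genes with a mean under 5 FPKM, -0.51 for the 69 genes from 5 to 20 FPKM and -0.46 for the 39 genes at 20 FPKM or more. Ratios below 0 were found in 31 of the 43 (72.1%), in 62 of the 69 (89.9%) and in 35 of the 39 (89.7%). Of the 43 low genes, 5 (11.6%) were higher by 1.5-fold, against 13.7% of genes in that band on the other chromosomes. Genes of the other chromosomes in the same bands had medians of 0.09, 0.06 and -0.03. Below 80 Mb the medians in those bands were 0.06, 0.27 and 0.05, and above 110 Mb they were 0.19, 0.19 and 0.14.

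Kinds of transcript and promoter were compared within the stretch. Between 80 and 110 Mb the 135 protein-coding genes had a median of -0.42 and the 6 long noncoding genes -0.50, with ratios below 0 in 114 and in 6. At the level of transcripts, 160 of 193 with 1 FPKM or more in either library had ratios below 0 (82.9%), against 115 of 310 below 80 Mb and 36 of 111 above 110 Mb. Genes whose span overlaps another listed gene, expressed or not, had a median of -0.55 (36 genes), and those with no overlap -0.39 (115 genes). Reads from shared exon bases cannot be told apart if the kit did not mark strand. Spans include introns, so not all of the 36 genes need share such bases. RefSeq promoters (GRCh38.p14) were matched for 387 of the 471 members, 126 of them in the middle stretch. The 250 bases before the start held a median of 18 CG dinucleotides there, 21.5 below 80 Mb, 22 above 110 Mb and 11 over 35116 promoters of all genes, a set not filtered by expression as the members were. In the middle stretch the 105 genes with 11 or more had a median ratio of -0.45, with 94 below 0, 37 lower by 1.5-fold and 1 higher. The 21 genes with fewer had a median of -0.24, with 12 below 0, 4 lower and 3 higher, and a wider spread (SD over genes 0.45 and 0.78).

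The letters searched in those windows on both strands were rare in members of every stretch. TATAAA was found in 5 of 126 windows between 80 and 110 Mb (3.97%), in 4.21% below 80 Mb, in 7.04% above 110 Mb and in 10.7% of all promoters. Unlike the members, the set of all promoters was not filtered by expression, so these shares come from unlike sets. The palindrome of an estrogen response element, GGTCA and TGACC with any 3 bases between them, was in 0 of the 387 members and in 0.0399% of all promoters. The core of an interferon response element, TTTC, any 2 bases and TTTC again, was in 3 of 126 windows of the middle stretch (2.38%). It was in 3.02% of all promoters. The interferon-induced IFIT genes start in this stretch but were left out by name, so they are not among those 126 windows. A match is a description of letters, and its absence says nothing about a factor.

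The largest single difference among the better expressed genes was that of C10orf116, whose promoter is shown above. It stood at 133.9 FPKM in shNT against 20.5 in shRON (log2 ratio -2.65), from a mean read depth of 435 and 65.5 over its transcript at 88.7 Mb. That is 2.23 log2 units under the median of its stretch. Its span overlaps AGAP11 and LOC100133190, and AGAP11 (1.28 and 0.271 FPKM) and LOC100133190 (5.55 and 3.001 FPKM) were lower too, so reads of these 3 genes may have been divided among them. The mitochondrial carrier gene SFXN3 was at 11.2 FPKM in shNT against 2.82 in shRON (-1.68), and KAZALD1, its neighbour at 102.8 Mb, which encodes a secreted protein, at 23.2 and 8.25 (-1.39). USMG5, now ATP5MK, which encodes a small subunit of ATP synthase, was at 132.9 and 51.4 FPKM (-1.35), and overlaps the low gene TAF5. The long noncoding gene C10orf75, now OLMALINC, was at 21.6 and 8.62 FPKM (-1.23), and PDLIM1, which encodes an actin-associated LIM protein, at 16.04 and 6.56 (-1.17).

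Against the direction of the stretch, 23 genes had ratios above 0, 11 of them with a mean of 5 FPKM or more. RBP4 stood apart, at 1.00 FPKM in shNT against 10.2 in shRON (log2 ratio 2.49), with mean read depths of 3.88 and 36.3. Under that mean, 5 genes were higher by 1.5-fold: ABCC2 (1.26), HPSE2 (1.03), ENTPD1 (0.76), LOC100507575 (0.68) and LOC100505869 (0.67). The next ones at that mean or more did not reach 1.5-fold: PCGF5, which encodes a Polycomb RING finger protein (5.41 and 6.75 FPKM, 0.28), SLC25A28, a mitochondrial iron importer gene (16.9 and 20.5, 0.27), and PAPSS2, which makes the sulfate donor of sulfotransferases (8.91 and 10.4, 0.20). C10orf58, now PRXL2A (44.0 and 50.3 FPKM, 0.19), and the B-cell adaptor gene BLNK (6.89 and 7.71, 0.14) complete the 6 highest at that mean.

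Genes for mitochondrial proteins lie on both sides of the bounds. The list drawn up for them, which like all lists here was made with earlier results of these data known, holds 36 members, 18 of them between 80 and 110 Mb and 18 elsewhere on the chromosome. Inside the stretch 14 of 18 had ratios below 0, with a median of -0.60. By 1.5-fold 9 (50%) were lower and 0 higher, where 8.88% of all measured genes were lower and 9.99% higher. One of the 9, GOT1, encodes a cytosolic enzyme. Elsewhere 8 of 18 were below 0, 0 reached 1.5-fold in either direction, and the median was 0.01. GHITM was at 183.0 FPKM in shNT against 96.3 in shRON (-0.92), NDUFB8, an accessory subunit gene of respiratory complex I, at 143.5 and 88.7 (-0.69), and MRPL43, a mitochondrial ribosomal protein gene, at 89.1 and 64.8 (-0.45). COX15, needed for the heme of cytochrome oxidase, was at 15.1 and 6.27 FPKM (-1.15), but overlaps CUTC (12.0 and 5.68 FPKM), which was lower too. The glutamate dehydrogenase gene GLUD1 was at 55.7 and 35.9 FPKM (-0.62), and GOT1, the cytosolic aspartate aminotransferase gene of the malate-aspartate shuttle, at 48.1 and 27.4 (-0.79). Outside the stretch, ATP5C1, the gamma subunit gene of ATP synthase, was at 211.3 and 189.3 FPKM (-0.16), the mitochondrial transcription factor gene TFAM at 28.4 and 29.5 (0.05), and the peroxiredoxin gene PRDX3 at 97.7 and 89.8 (-0.12). So of the genes for ATP synthase subunits on this list, USMG5 inside the stretch differed by more than ATP5C1 outside it.

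Membrane traffic, cytoskeleton and adhesion genes numbered 18 inside the stretch. All 18 had ratios below 0, from -1.17 (PDLIM1) to -0.09 (TSPAN14), and 8 were lower by 1.5-fold and 0 higher (median -0.54), while of 29 elsewhere 10 were below 0, 2 were lower and 5 higher (median 0.17). The lower genes were 44.4% inside and 6.90% elsewhere, against 8.88% of all measured genes. The higher genes elsewhere were 17.2%, against 9.99%. TM9SF3, a membrane protein gene of the secretory pathway, was at 73.7 and 44.5 FPKM (-0.72), and the ferlin gene MYOF, which acts in membrane repair, at 62.5 and 38.3 (-0.69). ARL3, a small GTPase gene of the cilium, was at 16.7 and 7.54 FPKM (-1.05), TCTN3, another cilium gene, at 31.4 and 16.05 (-0.93), and the lysosome-positioning gene BLOC1S2 at 33.1 and 20.2 (-0.69). Elsewhere, NEBL, which encodes an actin-binding nebulin relative, was lower (24.4 and 11.9 FPKM, -0.98), as was the small GTPase gene RAB18 (150.5 and 98.5, -0.61), whereas the tetraspanin gene TSPAN15 was higher (32.5 and 56.9, 0.79).

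Of 15 signalling genes inside the stretch, 14 had ratios below 0, with a median of -0.24. By 1.5-fold 1 of them was lower (6.67%), a share near the 8.88% of all measured genes. Of 28 elsewhere 0 were lower and 7 higher (25%, against 9.99% of all measured genes), with a median of 0.18. FAS, the death receptor gene, was the one past that size, at 6.94 and 4.02 FPKM (-0.66), although it overlaps ACTA2. BMPR1A, a receptor gene for bone morphogenetic proteins, was at 17.1 and 11.3 FPKM (-0.56). The NF-kB pathway genes CHUK, which encodes the kinase IKK-alpha (13.4 and 10.7 FPKM, -0.30), and NFKB2 (16.2 and 13.0, -0.30) had similar ratios. SUFU, an inhibitor of Hedgehog signalling, was at 5.32 and 5.19 (-0.03).

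Transcription and chromatin genes had 10 of 13 ratios below 0 inside the stretch (median -0.36, 2 lower by 1.5-fold and 0 higher) and 6 of 37 elsewhere (median 0.24, 1 lower and 5 higher). The 2 lower inside were 15.4% and the 5 higher elsewhere 13.5%, where 8.88% of all measured genes were lower and 9.99% higher. One of the 2 lower genes, ZFYVE27 (12.8 and 7.93 FPKM, -0.63), encodes an endoplasmic reticulum protein rather than a chromatin factor. The other was NOLC1, a nucleolar phosphoprotein gene (43.0 and 28.0, -0.60). Of RNA processing and translation genes, 9 of 10 inside and 8 of 25 elsewhere had ratios below 0 (medians -0.37 and 0.14), and NOLC1 again was the only one lower by 1.5-fold. So 10% of those inside were lower and 4% of those elsewhere higher, near or under the shares of all measured genes. RRP12 (21.2 and 14.3 FPKM, -0.54) and RPP30 (15.8 and 10.6, -0.54), which act in ribosome and transfer RNA maturation, came close to that size. RSU1, the only higher gene of that list, encodes a suppressor of Ras signalling and not an RNA factor (6.40 and 16.8 FPKM, 1.27).

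Metabolic genes had medians below 0 inside and outside the stretch. Inside the stretch 10 of 13 lipid, sterol and intermediary metabolism genes had ratios below 0, with 5 lower and 2 higher by 1.5-fold (median -0.55), and elsewhere 11 of 16 did, with 3 lower and 0 higher (median -0.18). The lower genes were 38.5% inside and 18.75% elsewhere, against 8.88% of all measured genes. The higher genes inside were 15.4%, against 9.99%. The isopentenyl diphosphate isomerase gene IDI1, at 1.09 Mb and so far from the stretch, was at 183.2 FPKM in shNT against 94.1 in shRON (-0.95). The prolyl hydroxylase gene P4HA1 at 74.8 Mb was at 24.6 and 15.2 FPKM (-0.66). MINPP1, an inositol phosphate phosphatase gene inside the stretch, was at 9.01 and 4.52 FPKM (-0.86), and the lysosomal acid lipase gene LIPA at 49.3 and 38.9 (-0.33). The 2 higher genes, the ectonucleotidase gene ENTPD1 (2.91 and 5.64 FPKM, 0.76) and HPSE2 (0.0272 and 1.10, 1.03), were low. ENTPD1 has a transcript marked as failed or as low in data. Cell division, replication and repair genes numbered 6 inside the stretch, 5 of them below 0 (median -0.44), and 25 elsewhere, 9 of them below 0 (median 0.09). The kinesin gene KIF20B was at 7.85 and 4.54 FPKM (-0.68) inside the stretch, and ZWINT, a kinetochore gene at 58.1 Mb, at 51.1 and 32.3 (-0.65).

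**Figure D3:**
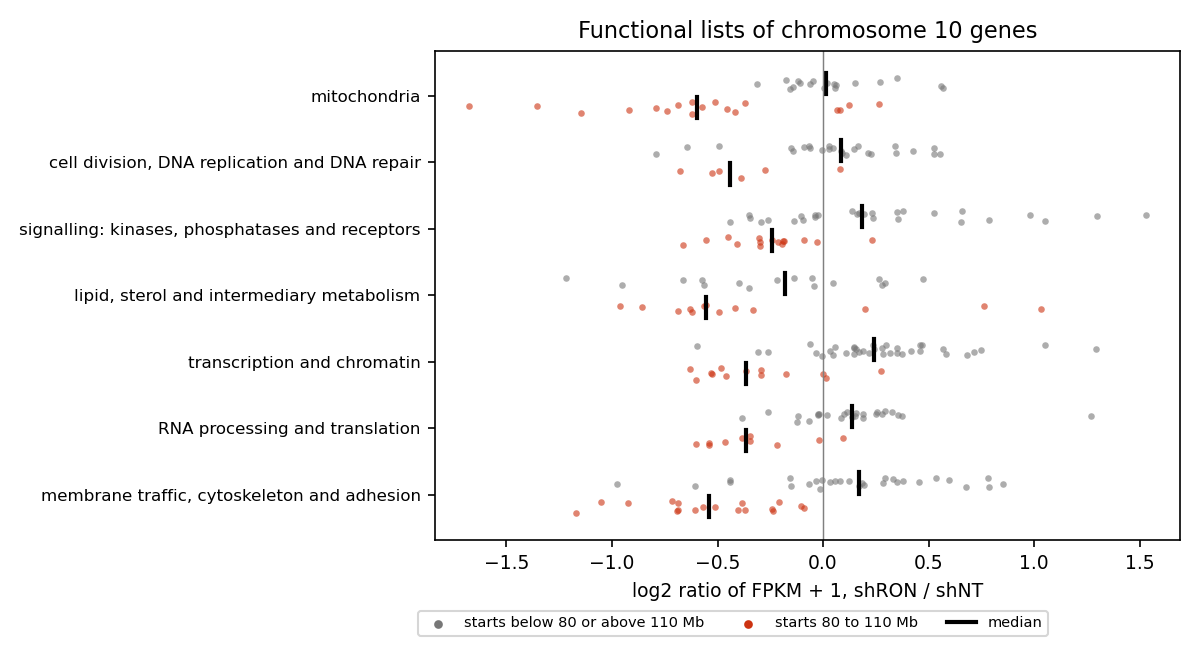
Log2 ratio of FPKM + 1 (shRON over shNT, horizontal axis) of each member of 7 functional lists of chromosome 10 genes, in red for starts from 80 to 110 Mb and in grey for starts elsewhere, with black bars at the medians. In each of the 7 lists the red median lies below the grey one, for example -0.60 and 0.01 for mitochondria.

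Outside the stretch, the genes with a mean of 5 FPKM or more are described first. Below 80 Mb, the transcription cofactor gene ARID5B was at 5.41 FPKM in shNT against 14.7 in shRON (1.29), and DDIT4, an inhibitor of mTOR complex 1, at 39.2 and 82.4 (1.05). ZNF503, a zinc finger repressor gene, was at 3.42 and 8.16 FPKM (1.05), and the phosphoinositide kinase gene PIP4K2A at 3.31 and 7.51 (0.98). LOC100507539 was the lowest at that mean, at 8.86 and 2.68 FPKM (-1.42), and overlaps SYT15. Under that mean, and named after their values were seen, MKX had the lowest ratio below 80 Mb (8.08 and 1.85 FPKM, -1.67) and DKK1, which encodes a Wnt inhibitor, the highest (0.304 and 8.21, 2.82). PBLD, again with a mean of 5 FPKM or more, was at 11.1 and 6.31 FPKM (-0.72). The abundant genes PSAP, the precursor of the lysosomal saposins (196.4 and 272.8 FPKM, 0.47), and HNRNPF, an RNA-binding protein gene (181.6 and 194.6, 0.10), were not lower.

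Above 110 Mb, again among genes with a mean of 5 FPKM or more, FGFR2, a fibroblast growth factor receptor gene, had the highest ratio, at 6.09 and 19.5 FPKM (1.53), followed by the Wnt-pathway transcription factor gene TCF7L2 (3.22 and 9.40, 1.3003). PDCD4, which encodes an inhibitor of translation initiation, was also higher (65.4 and 103.7 FPKM, 0.66), and OAT, the ornithine aminotransferase gene, was just under the 1.5-fold size (68.5 and 101.4, 0.56). The stress-response genes BAG3 (24.997 and 15.1 FPKM, -0.69) and BNIP3 (82.4 and 51.0, -0.68) were lower, and the next lowest, LOC100506018 (8.26 and 6.22) and INPP5A (6.38 and 4.79), had ratios of -0.36 and -0.35. UROS, a heme synthesis gene (19.4 and 15.5, -0.31), and ZNF511 (14.4 and 12.0, -0.25) complete the 6 lowest at that mean. Under it, and named after their values were seen, CHST15 was at 4.16 and 0.996 FPKM (-1.37) and NKX1-2 at 0.367 and 2.85 (1.49).

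The filter of 1 FPKM lies among genes of varied ratios. The 3 genes just under it were CDNF (0.997 FPKM at most, 0.13), ZNF487 (0.995, -0.04) and C10orf114 (0.958, -0.65), and the 3 just above it LOC100507575 (1.00, 0.68), FANK1 (1.00, 0.47) and HHEX (1.01, -0.29). Among the 9 genes between 80 and 110 Mb that were left out by name and reached 1 FPKM, 5 had ratios below 0, and with the left-out genes put back the median of the stretch was -0.42.

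Compared with the rest of the genome, a median as low as that of the stretch was uncommon but not unique. The medians of the 22 other chromosomes with 40 or more measured genes lay between -0.33 (chromosome 16) and 0.26 (chromosome 8), and 0 of them reached -0.42. Of 97 consecutive 30 Mb tiles on other chromosomes with at least 40 measured genes, 3 were at or under it: 90 to 120 Mb of chromosome 13 (58 genes, -0.58), 60 to 90 Mb of chromosome 9 (41 genes, -0.50) and 30 to 60 Mb of chromosome 16 (122 genes, -0.46). The bounds of those tiles were not placed by their ratios, whereas the bounds at 80 and 110 Mb were.

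**Figure D4:**
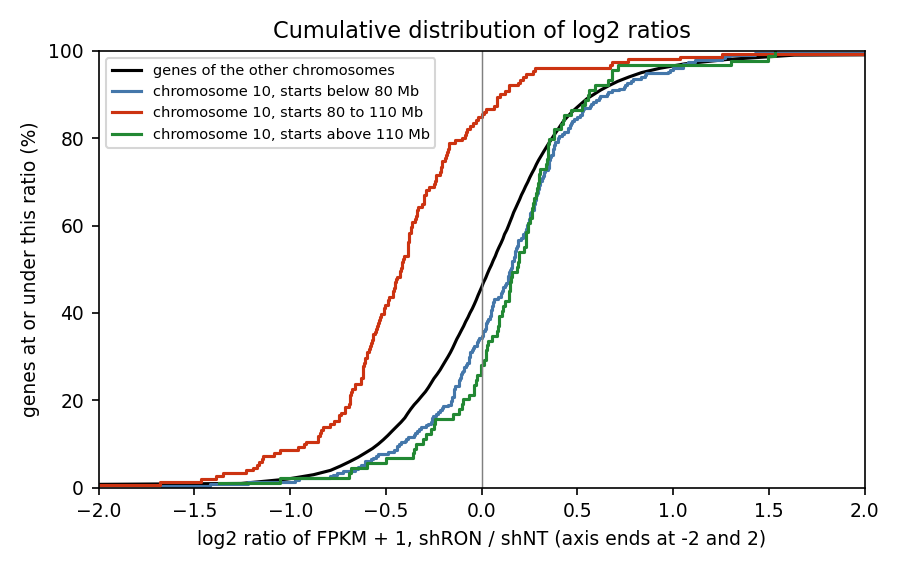
Share of genes (vertical axis, percent) at or under a given log2 ratio of FPKM + 1 (shRON over shNT, horizontal axis from -2 to 2) for the 3 stretches of chromosome 10 and for the genes of the other chromosomes. The curve for 80 to 110 Mb lies to the left over most of its range, crossing 50% at -0.42 against 0.04 for the other chromosomes, and the curves for the outer stretches lie slightly to the right.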

How the data were processed

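RNA was sequenced from 2 T47D libraries, 1 per group, from TRIZOL-extracted total RNA prepared with the TruSeq RNA kit, per the labels' protocols. The authors deposited FPKM values for 37839 RefSeq transcripts per library whose columns, per the file headers, are those of Cufflinks. The submitters' processing notes name hg19 as the build, and DESeq without a role. The deposited coverage column was read as mean read depth per transcript. The aligner, tool versions and strand setting were not given in the sources used here. Whole fragments were not recovered, so no intervals are given.

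FPKM was summed per gene, and each log2 ratio divides FPKM + 1 of shRON by that of shNT. Scripts ran in Python 3.11.15 with pandas 2.3.3 and numpy 2.4.6 and were tested on simulated data. Table starts were converted to 1-based. Named genes are the 6 highest and 6 lowest ratios and the 4 most abundant genes per stretch with a mean of 5 FPKM or more, the 4 genes on each side of a bound, those nearest the filter, and list members, of which some are not reported here; genes that overlap a named gene were added after their values were seen. RefSeq (GRCh38.p14) matched 443 of 471 members by name or accession. Members, bounds and lists were chosen with earlier results of these data known. Alternatives covered the pseudocount, filters, scaling, transcript choice, membership and bounds.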

Additional observations from a re-analysis of the deposited data

How the results depend on the processing

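A median was taken to have moved when it left its 95% binomial interval over genes, which are not replicates. A difference of medians had moved when it shifted by more than the margins of both intervals, combined as the root of their summed squares. A break had moved when it shifted by over 1 Mb, and a count when it differed by over 1.5 times. Of 201 values for 13 results, 167 stayed within these limits and 34 moved. Only medians and their differences can change sign, and 0 of them did. Counts and break positions cannot. With a pseudocount of 5, the median from 80 to 110 Mb was -0.28, its differences from the genes below and above were -0.38 and -0.39, and genes lower and higher by 1.5-fold numbered 7 and 11 below 80 Mb, 23 and 1 in the middle, and 2 and 3 above 110 Mb. With no filter, the medians below 80 Mb and in the middle were 0.059 and -0.29, the differences -0.35 and -0.40, and the first break 84.1 Mb. With a mean of 5 FPKM or more, 8 genes were lower and 15 higher below 80 Mb, and 1 was higher in the middle. Above 110 Mb, 2 were lower and 4 higher. The difference from below 80 Mb was then -0.67, and the breaks were 84.1 and 108.8 Mb. The second break still followed GSTO2, as the next member, LOC100505869, fell under that mean. The first break was also 84.1 Mb with the trend with expression removed and with near-identical copies left out. With 1 FPKM in both libraries, 3 genes were higher in the middle, and 3 lower and 5 higher above 110 Mb. With bounds 5 Mb lower the middle median was -0.37 and 8 genes were lower above, and with bounds 5 Mb higher 5 were higher above. Before the widest gene-free gap 7 genes below 80 Mb were lower and 10 higher, and after it 7 and 17, counts that are smaller by construction. No paired analysis was possible because each group has 1 library, and for the same reason no library could be left out. Strand, replicate spread and fragment counts limit all values.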

Other observations

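FGFR2 and TCF7L2, the 2 genes with the highest ratios above 110 Mb among those with a mean of 5 FPKM or more, have several transcripts in the tables, and these values were looked at after the gene values were seen. The most abundant of the 9 FGFR2 transcripts was the same in both libraries and held 87.5% of the gene's FPKM in shNT (5.33 of 6.09) and 85.0% in shRON (16.5 of 19.5). The most abundant of the 6 TCF7L2 transcripts was also the same in both, at 1.34 FPKM in shNT, 41.5% of the gene, and at 7.32 FPKM in shRON, 77.8%. How reads were divided among such overlapping transcripts is an estimate.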
